A study of Mus musculus with 4 samples.

Results

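Counts of 10 FGF-ERK signalling genes were followed in mouse embryos that had received a morpholino, a synthetic antisense molecule that keeps its target RNA from being translated or spliced. The genes were chosen by symbol, and all 10 were found among the 55453 genes of every plate. They are the ligand Fgf4, the receptors Fgfr1 and Fgfr2, the adaptor Grb2 and the exchange factor Sos1. The others are the feedback inhibitors Spry2, Spry4 and Dusp6, and the transcription factors Etv4 and Etv5. Embryos carried either a morpholino against NKX1-2, a homeobox transcription factor, or a control morpholino, so every group was injected. Morula and blastocyst wells came from 2 plates per stage, and each plate of 96 wells held 48 control and 48 NKX1-2 wells. Strain, embryonic day and the embryo behind each well are not given in the labels, and nothing there says that plates came from separate litters. The spread that p-values rest on is thus that of these plates and may be technical.

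FGF4 binds FGF receptors at the cell surface together with heparan sulfate. The active receptor recruits the adaptor GRB2 and the exchange factor SOS1, which switch on RAS and then the kinases RAF, MEK and ERK. ERK turns on ETS-family factors such as ETV4 and ETV5, and also its own inhibitors: Sprouty proteins act upstream in the cascade, and DUSP6 removes phosphate from ERK. In the blastocyst, epiblast cells are known as the source of FGF4, while trophectoderm and primitive endoderm precursors carry FGFR2. FGF signalling there is known for directing inner cells to primitive endoderm and for sustaining trophectoderm.

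Of 384 wells, 368 had at least 2000 detected genes and were kept, 191 of the morula and 177 of the blastocyst. Adding up the wells of each morpholino on each plate gave 8 sums, with 1066591 to 2398605 counts. The median well held 41251 to 48648 counts in the 4 morula groups and 22014 to 36988 in the 4 blastocyst groups. Levels are given as CPM, the counts of a gene scaled to a common library size, with library sizes adjusted by TMM, a method that balances the bulk of genes between sums. The target transcript, Nkx1-2, had 0 counts in all 8 sums, so its level checks neither the labels nor the morpholino. Summed levels of 6 fibroblast, 6 cumulus and 3 erythroid markers lay at 0 to 9.99 CPM in every sum, against 3927 to 5881 CPM for the 22 listed inner cell mass and epiblast genes, of which 18 had a count. The 30 trophectoderm markers summed to 2013 to 2402 CPM over the 8 sums of both stages, with single markers on opposite sides: in control wells Krt18 was at 24.98 and 17.1 CPM in the morula and 133 and 129 CPM in the blastocyst, and Hand1 at 371 and 321 CPM and at 99.1 and 41.7 CPM.

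Promoter sequence was printed for Dusp6 and Fgf4, whose transcripts were called lower in the blastocyst, and for Sos1, which held the ETS core motif. The Fgf4 call in control wells was lost in 7 of 12 alternative fits. Grb2, also called lower, is not printed, and its listed promoters held neither of the motifs marked below. The sequences come from RefSeq on GRCm38.p6, run 5′ to 3′ and cover the 250 bases before the annotated start. Capitals mark CCGGAA (ETS core) in Sos1 and GGGCGG (SP1 box) in Fgf4, searched on both strands.
Dusp6, chr10:99262981-99263230, plus strand: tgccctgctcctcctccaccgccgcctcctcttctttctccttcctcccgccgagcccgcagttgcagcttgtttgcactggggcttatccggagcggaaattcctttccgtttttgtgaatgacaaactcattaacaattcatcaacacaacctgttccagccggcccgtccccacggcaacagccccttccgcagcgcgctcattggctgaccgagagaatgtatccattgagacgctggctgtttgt
Fgf4, chr7:144861136-144861385, plus strand: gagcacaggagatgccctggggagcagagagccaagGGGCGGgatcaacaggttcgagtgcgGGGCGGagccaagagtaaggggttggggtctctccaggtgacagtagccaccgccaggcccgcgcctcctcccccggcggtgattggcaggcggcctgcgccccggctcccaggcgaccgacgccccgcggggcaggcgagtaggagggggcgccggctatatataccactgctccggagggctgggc
Sos1, chr17:80480454-80480703, minus strand: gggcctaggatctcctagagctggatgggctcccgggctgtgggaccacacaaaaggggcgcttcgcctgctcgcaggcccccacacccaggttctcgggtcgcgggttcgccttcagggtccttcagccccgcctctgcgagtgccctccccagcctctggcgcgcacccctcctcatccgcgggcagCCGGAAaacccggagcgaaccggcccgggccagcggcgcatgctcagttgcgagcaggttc
Promoters were listed for 7 of the 10 genes, 9 start sites in all, each with 300 bases to 50 bases past the start. CCGGAA was found in 2 of the 9, those of Sos1 and Spry2, and in 14.9% of 32851 listed promoters of the same length. The Sos1 match began 61 bases before the start. GGGCGG was found in 2 of the 9, those of Fgf4 and one start of Etv5, and in 35.7% of all. In Fgf4 its matches began 214 and 188 bases before the start. The 300-base Dusp6 window held neither motif, and these matches are letters in a window, not measured binding.

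Fgf4 (chr7:144847367-144865243, plus strand, GRCm38) was the only ligand in the group. In the morula it stood at 29.1 and 23.9 CPM in control wells of plates 1 and 2, and at 18.5 and 19.5 CPM in NKX1-2 wells. Blastocyst levels were 9.49 and 15.9 CPM in control wells and 6.97 and 10.6 CPM in NKX1-2 wells. Every blastocyst value lay below every morula value, and the NKX1-2 value lay below the control value in each of the 4 plates. Dusp6 was also lower and Grb2 higher with NKX1-2 in each plate. How many of all genes showed either pattern was not counted, here or for the genes below. Fgf4 counts were few, 223 in the morula and 55 in the blastocyst. They were also unevenly spread: in control wells of morula plate 1, 5 wells held 72.9% of the Fgf4 counts and 1 well held 23 of the 70. A spread index of 1 is what counting alone gives. Fgf4 reached 6.41 in that group and 1.64 to 1.94 in the other morula groups, where the median gene stood at 1.18 to 1.23. The 95th percentile of genes there was 2.42 to 2.99, so only the first group was beyond it. Over the 4 morula groups Dusp6 ranged from 1.67 to 2.80 and Grb2 from 2.38 to 5.06.

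The receptors stood close together in level but spread differently over stages. Fgfr1 (chr8:25513654-25575718, plus strand) was at 18.3 and 23.0 CPM in morula control wells and at 21.2 and 28.7 CPM in morula NKX1-2 wells. In the blastocyst it was at 9.49 and 19.7 CPM in control wells and at 13.2 and 10.6 CPM in NKX1-2 wells. The control values of the stages thus overlapped, while the NKX1-2 values did not. Fgfr2 (chr7:130162451-133123350, minus strand) was at 21.2 and 16.7 CPM in morula control wells and at 21.5 and 13.8 CPM in morula NKX1-2 wells. Its blastocyst levels lay at 22.1 and 13.6 CPM in control wells and at 19.4 and 31.1 CPM in NKX1-2 wells, so that all groups overlapped. The annotated Fgfr2 exons overlap those of Ctbp2 on the same strand, with 2.69% of 31-base stretches in common, so some reads could be counted for either gene.

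The adaptor Grb2 (chr11:115644045-115708597, minus strand) was by far the most abundant of the 10. It stood at 396 and 423 CPM in morula control wells and at 429 and 473 CPM in morula NKX1-2 wells. Blastocyst levels were 168 and 153 CPM in control wells and 176 and 188 CPM in NKX1-2 wells. The stages were far apart, and the NKX1-2 value lay above the control value in each plate by less than the distance between stages. Grb2 shares 12.1% of its 31-base stretches with Gm12791, which had 53 counts in the morula and 14 in the blastocyst, against 4262 and 877 for Grb2 over all wells. Sos1 (chr17:80393751-80480453, minus strand), which loads RAS with GTP, was at 45.0 and 36.0 CPM in morula control wells and at 33.6 and 27.2 CPM in morula NKX1-2 wells. At the later stage Sos1 was at 26.4 and 26.5 CPM in control wells and at 26.3 and 46.3 CPM in NKX1-2 wells. Its NKX1-2 values were thus the lower ones in the morula plates, level with control in blastocyst plate 1 and the higher one in plate 2.

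Among the inhibitors, Dusp6 (chr10:99263231-99267489, plus strand) differed most between stages. It stood at 24.1 and 23.0 CPM in morula control wells and at 23.0 and 21.8 CPM in morula NKX1-2 wells. In the blastocyst it stood at 7.38 and 8.33 CPM in control wells and at 6.20 and 5.29 CPM in NKX1-2 wells. The 2 plates of each group lay close together and the stages did not overlap. Spry2 (chr14:105891947-105896819, minus strand) showed no such gap. It was at 18.3, 13.1, 19.6 and 14.9 CPM in the morula (control plates 1 and 2, then NKX1-2 plates 1 and 2) and at 20.04, 17.4, 17.8 and 15.9 CPM in the blastocyst. Spry4, on chromosome 18, was sparse: morula control wells held 3 and 4 counts in plates 1 and 2, and blastocyst control wells 0 and 4. Morula NKX1-2 wells held 12 and 8 counts and blastocyst NKX1-2 wells 2 and 7, of which 4 came from 1 well.

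The ETS factors differed in how often they were found. Etv5 (chr16:22381309-22439719, minus strand) was at 12.5 and 8.55 CPM in morula control wells and at 7.93 and 12.6 CPM in morula NKX1-2 wells. In the blastocyst it was at 9.49 and 22.0 CPM in control wells and at 10.8 and 9.92 CPM in NKX1-2 wells, and all groups overlapped. Etv5 shares 30.3% of its stretches with Gm4798, which had 1 count in each stage. Etv4 (chr11:101769742-101785371, minus strand) had 4 counts in 191 morula wells and 0 in 177 blastocyst wells, which allows a share of up to 1.69% of blastocyst wells with a count. That limit covers counting error only.

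**Figure D1:**
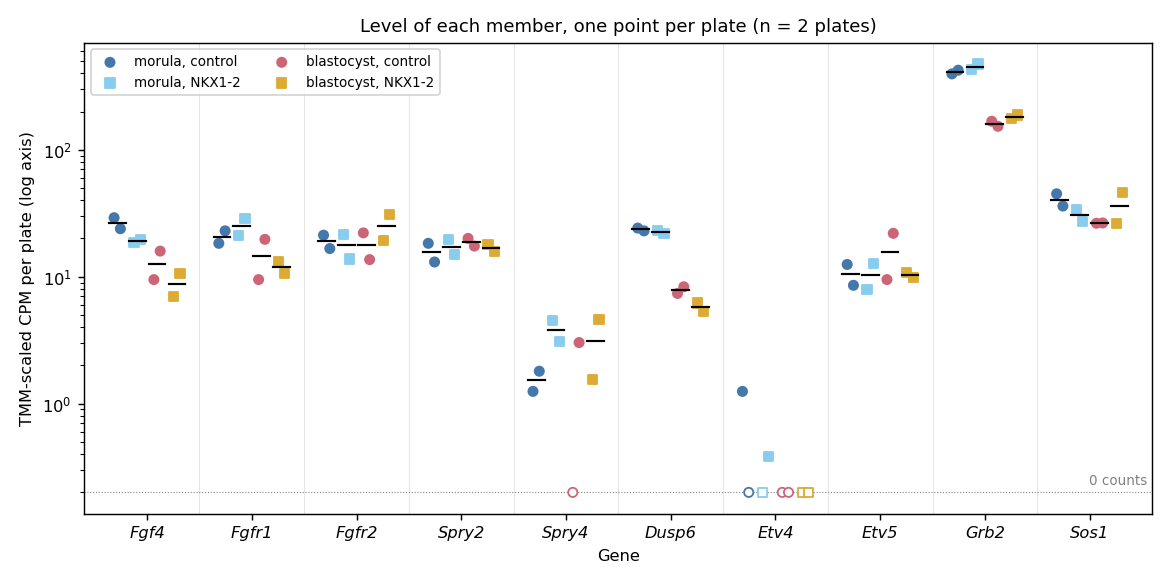
TMM-scaled CPM (log axis) of each gene, with 1 point per plate and a bar at the mean of the 2 plates where both had counts. Open symbols on the dotted line had 0 counts. Fgf4, Dusp6 and Grb2 sit lower in both blastocyst groups than in both morula groups, and Grb2 lies far above the other 9.

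Per kilobase of exon, Grb2 also led in each group, at 140 ± 6.62 CPM per kb in morula control wells and 55.0 ± 3.56 in blastocyst control wells (SD, n = 2 plates, as for all values of this kind). In morula control wells Fgf4 followed at 8.29 ± 1.17 CPM per kb, Dusp6 at 7.52 ± 0.267 and Spry2 at 7.52 ± 1.78, which do not differ beyond their spread. Sos1 came next at 3.82 ± 0.597, then Etv5 at 2.56 ± 0.678, Fgfr1 at 2.09 ± 0.333 and Fgfr2 at 1.83 ± 0.313, with neighbours again within their spread. Spry4 at 0.321 ± 0.0821 and Etv4 at 0.201 ± 0.285 closed the order. In blastocyst control wells Spry2 was second, at 8.97 ± 0.886 CPM per kb. Fgf4 at 3.97 ± 1.42 and Etv5 at 3.83 ± 2.15 were next to each other, and Dusp6 and Sos1 were level at 2.51 ± 0.214 and 2.50 ± 0.00979. The receptors Fgfr2 at 1.73 ± 0.583 and Fgfr1 at 1.48 ± 0.731 also lay within their spread. Spry4 followed at 0.319 ± 0.451, and Etv4 had 0 counts. Dividing by exon length presumes counts from the whole transcript, which the sources used here do not state. The order depends on it: by CPM alone Sos1 was second in morula control wells, at 40.5 ± 6.32 CPM.

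The share of wells with a count was compared after thinning each well to 10000 counts, since morula wells were deeper. The 3 wells with fewer counts were left out. Grb2 was found in 96.6% to 98.1% of morula wells over the 4 groups, and in 66.2% to 77.0% of blastocyst wells. Dusp6 was found in 18.1% to 22.3% of morula wells and in 4.60% to 5.90% of blastocyst wells, and Fgf4 in 15.004% to 19.99% and in 5.77% to 12.6%. For these genes the stages did not overlap, and the share of all genes with such a gap was not counted. Sos1 ranged from 23.1% to 37.2% in the morula and from 18.0% to 31.8% in the blastocyst, and the ranges of Fgfr2, Spry2 and Etv5 also overlapped. Fgfr1 was at 19.6% to 25.4% in the morula and 7.66% to 16.9% in the blastocyst. Spry4 reached at most 4.54% and Etv4 at most 1.38%. Without thinning, Fgf4 had a count in 85 of 191 morula wells (44.5%) and 38 of 177 blastocyst wells (21.5%), and Dusp6 in 101 (52.9%) and 24 (13.6%).

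**Figure D2:**
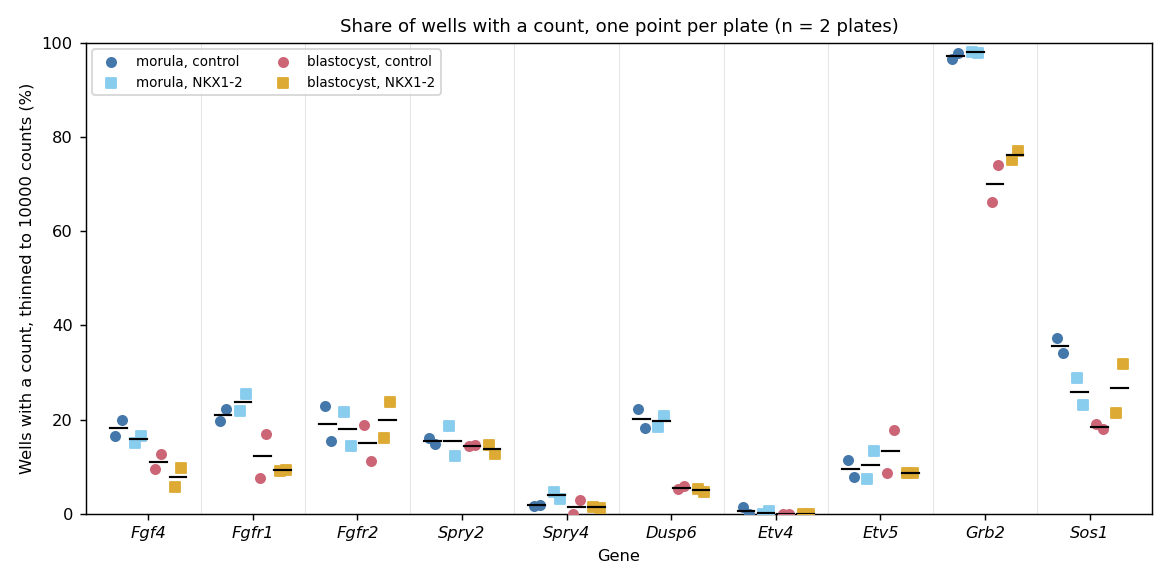
Percent of wells with at least 1 count of each gene when every well is thinned to 10000 counts, with 1 point per plate and a bar at the mean of 2 plates. Only Grb2 is found in most wells, and the Dusp6 points of the blastocyst, at 4.60% to 5.90%, lie below those of the morula, at 18.1% to 22.3%.

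The stages were compared in control wells first. Fgf4, Dusp6 and Grb2 were lower in the blastocyst than in the morula, and no member was called higher. Dusp6 fell by 1.56 on the log2 scale (SE 0.41), which is 2.94-fold, with an adjusted p of 0.00393 in edgeR's quasi-likelihood test with Benjamini-Hochberg adjustment over all genes. Grb2 fell by 1.35 (SE 0.18; 2.55-fold; edgeR adjusted p = 2.74e-06), and Fgf4 fell by 1.01 (SE 0.38; 2.02-fold; edgeR adjusted p = 0.0350). Thus 3 of the 8 members that passed the filter on low counts were called, all lower, where 41.7% of the 9577 genes tested were called and 21.6% were called lower. Spry4 and Etv4 did not pass that filter. Of all calls 51.9% were lower with TMM and 69.6% with no scaling factors, which shifted all genes by -0.28. The other 5 tested members had log2 fold changes of -0.61 (Sos1) to 0.63 (Etv5), and the median of the 8 was -0.52 against -0.01 for all genes. The Fgf4 call rested on few counts: the adjusted p was 0.0639 without its highest well in each sum, 0.0771 with deep wells thinned and 0.174 in DESeq2.

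In NKX1-2 wells of the same plates, 4 of 8 tested members were called, again all lower in the blastocyst, against 45.9% of 10221 genes called and 24.0% called lower. Dusp6 fell by 1.96 on the log2 scale (SE 0.39; edgeR adjusted p = 0.000565), and Grb2 fell by 1.31 (SE 0.14; edgeR adjusted p = 9.21e-07). Fgf4 fell by 1.10 (SE 0.38; edgeR adjusted p = 0.0242) and Fgfr1 fell by 1.08 (SE 0.35; edgeR adjusted p = 0.0166). The other 4 ranged from -0.05 (Spry2) to 0.52 (Fgfr2). DESeq2 gave adjusted p = 0.155 for Fgf4 and 0.113 for Fgfr1, and called Dusp6 and Grb2. Fgf4 lost its call when any 1 of the 4 plates was left out (edgeR adjusted p = 0.0516 to 0.156), and in control wells when either morula plate or blastocyst plate 1 was left out (edgeR adjusted p = 0.0663 to 0.213). Fgfr1 lost its call without morula plate 2, blastocyst plate 1 or blastocyst plate 2 (edgeR adjusted p = 0.0867 to 0.137). Dusp6 and Grb2 kept theirs without any 1 plate. Each stage had its own plates, so plate and stage cannot be told apart, nor can less RNA per cell and fewer cells of a type.

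**Figure D3:**
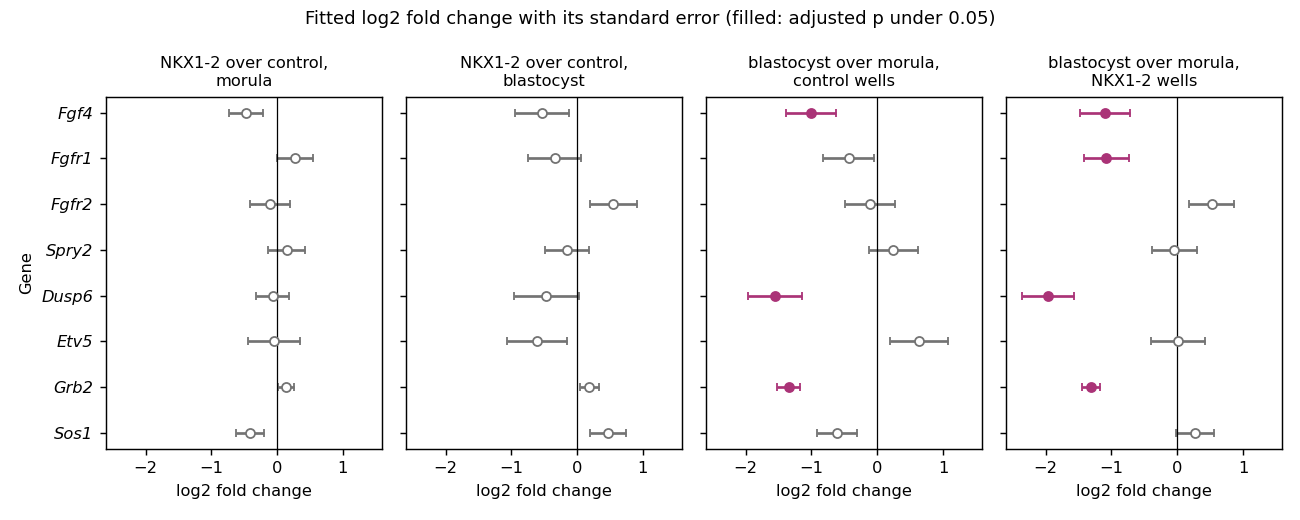
Fitted log2 fold change with its standard error for the 8 tested genes in 4 comparisons, filled where the adjusted p was under 0.05. The filled points are Fgf4, Dusp6 and Grb2 in both comparisons of the stages and Fgfr1 in that of NKX1-2 wells, and no point is filled for the morpholino.

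The morpholinos were then compared within plates. No member was called between NKX1-2 and control wells in the morula (0 of 8 by edgeR, against 0.552% of 10873 genes), in the blastocyst (0 of 8, against 0.727%) or on average over both stages (0 of 8, against 2.90%). At an unadjusted p under 0.05 the counts were also 0, 0 and 0, and DESeq2 called 0 in each. In the morula the log2 fold changes ran from -0.47 (Fgf4, SE 0.26) to 0.27 (Fgfr1, SE 0.27), and in the blastocyst from -0.61 (Etv5, SE 0.46) to 0.55 (Fgfr2, SE 0.36). On average over both stages Fgf4 was at -0.50 (SE 0.24), with an edgeR p of 0.0538 before and 0.312 after adjustment. The summed level of the inner cell mass and epiblast list was also lower in NKX1-2 wells than in control wells of each plate. It was 5284 against 5027 CPM and 5881 against 5415 CPM in the morula, and 4782 against 3927 CPM and 4625 against 4111 CPM in the blastocyst (control given first). Dppa5a, its most abundant gene, carried that difference. Without Dppa5a, which was chosen after its values were seen, the sums were 2835 against 2850 CPM and 3290 against 3520 CPM in the morula, and 1633 against 1531 CPM and 1569 against 1651 CPM in the blastocyst, so that NKX1-2 wells were lower in blastocyst plate 1 only. The difference between stages in the morpholino effect was called for 0 of 8 members by edgeR and by DESeq2, against 0.0184% of genes. Sos1 alone had an unadjusted p under 0.05, with a difference of 0.88 (SE 0.35) and an edgeR p of 0.0231 before and 0.684 after adjustment.

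The size of these errors sets what could be seen. In simulated data of the same depth, 73% of genes changed 2-fold were recovered for the morula (10345 genes tested) and 55% for the blastocyst (10346 tested). The share was 94% for the average over both stages (10346 tested) and 23% for the difference between stages (10362 tested). Only a sample of genes above a set mean count was changed, and all genes were given 1 common spread. These shares may thus be too high for members with few counts, such as Dusp6 with 7 to 11 per blastocyst sum. The fitted values of all 8 members were under 2-fold in each of these comparisons, and smaller changes than those simulated are harder to recover. The smallest errors were those of Grb2, which was at 0.14 (SE 0.12) in the morula and at 0.19 (SE 0.14) in the blastocyst.

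The wider cascade was read from a list of 78 other genes, of which 50 were tested in control wells for the stages. In the blastocyst 11 were higher and 11 lower, a share near the 41.7% called and 21.6% called lower among all genes, and their median log2 fold change was -0.38 against -0.01 for all genes. Klf6, a zinc finger factor induced by growth factors, rose by 4.97 (SE 0.46), from 1.49 ± 0.835 to 49.2 ± 1.05 CPM. Myc, a growth-promoting transcription factor, fell by 3.22 (SE 0.44), from 46.8 ± 4.43 to 5.35 ± 4.36 CPM. Map2k2, which encodes the kinase MEK2, fell by 1.07 (SE 0.18), from 353 ± 18.3 to 167 ± 4.93 CPM. Dusp4, a nuclear phosphatase of ERK, rose by 3.21 (SE 0.50), from 2.62 ± 0.757 to 23.8 ± 11.3 CPM, opposite to Dusp6. Ier3, an immediate early gene, rose by 4.60 (SE 0.79) from 2 counts in morula control wells to 27 in blastocyst control wells, a CPM ratio of 27.5 (exact 95% interval for counting error 6.91 to 239). By role, 1 of 2 tested ligands, 2 of 9 receptors and docking proteins, 2 of 4 RAS genes, 4 of 10 kinases, 5 of 14 inhibitors and 8 of 11 targets and effectors were called, and no role was tested against the 41.7% of all genes.

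In NKX1-2 wells 51 of the 78 were tested, and 9 were higher and 17 lower in the blastocyst, where 45.9% of all genes were called and 24.0% were called lower, with a median of -0.34 against -0.02 for all genes. Klf6 rose by 3.99 and Dusp14, a phosphatase of the DUSP family, by 0.97. Myc fell by 3.77, Fgf1, a further FGF ligand, by 1.61 and Map2k2 by 0.86. Of the inhibitors, 2 were higher and 8 lower of 17 tested, which was not tested against the 24.0% of all genes called lower. For the morpholino, 53 list genes were tested and edgeR called 0 in the morula (6 at an unadjusted p under 0.05), 0 in the blastocyst (4) and 0 for the difference between stages (3). On average over both stages edgeR called 1 list gene, and 0 when either morula plate was left out. DESeq2 called 0 list genes in each of these 4 comparisons.

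From well to well, pairs of members showed only low correlations, but most members were sparse. Over wells thinned to 10000 counts, the mean Spearman rho of the 4 plate and morpholino groups ran from -0.12 to 0.23 in the morula (28 pairs, 190 wells) and from -0.15 to 0.20 in the blastocyst (21 pairs, 175 wells), all under 0.3 and weak. Only Spry2 with Sos1 in the morula reached 0.23. Wells share their plate, and sparse counts limit such values. Only 2 members in the morula and 1 in the blastocyst had a count in at least 20% of thinned wells of each group. Most of these low values thus cannot tell unrelated pairs from pairs too sparse to measure. Fgf4 and Fgfr2 were found together in 49 of 191 morula wells, where 48.8 would be expected if they were unrelated, and in 12 of 177 blastocyst wells, where 14.6 would be. Fgf4 and Etv5 were found together in 16 blastocyst wells against 10.6, and Fgfr2 and Etv5 in 9 against 17.5. Other pairs lay about as far from the expected count, so these do not stand out. Among them, Fgfr2 and Sos1 were found together in 44 blastocyst wells against 34.8, and Fgfr1 and Spry2 in 25 against 17.9. In the morula, Spry2 and Sos1 were found together in 84 wells against 75.7. These counts are descriptions and depend on the depth of each well.

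**Figure D4:**
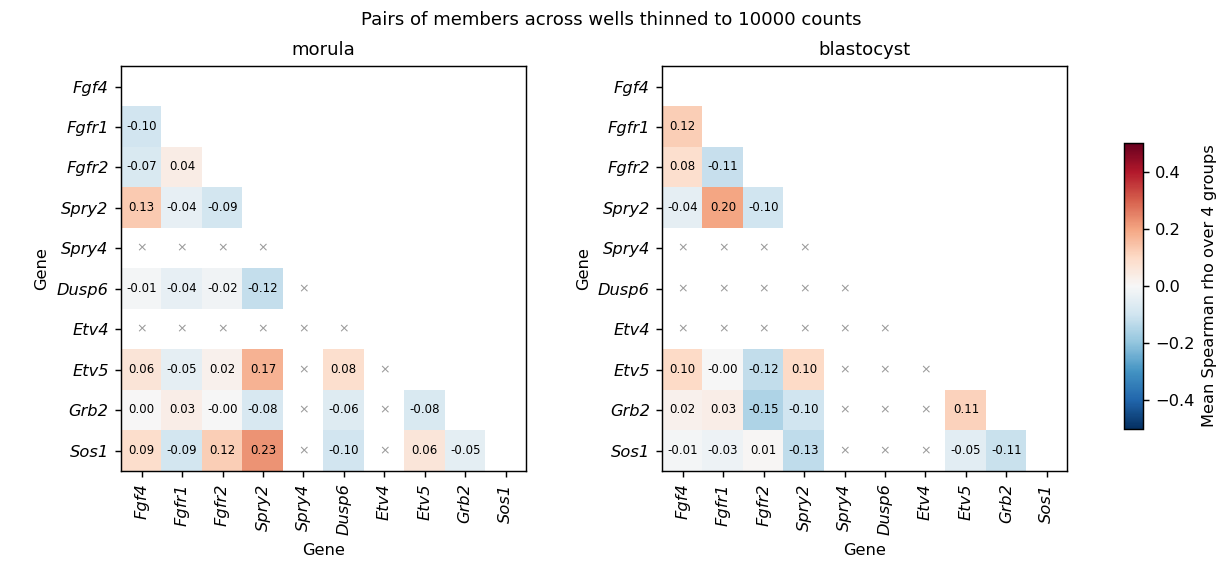
Mean Spearman rho over 4 groups for each pair of genes in morula wells and blastocyst wells thinned to 10000 counts. Crosses mark pairs without a value in all 4 groups, and colours stay pale because all values lie between -0.15 and 0.23.

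In the blastocyst, Fgfr2 was the member that followed the trophectoderm list most closely. Its mean rho with the summed level of that list was 0.20 in thinned wells (-0.03 to 0.42 over 4 groups). With all counts it was 0.29 (0.12 to 0.48). Sfn alone made up 603 to 880 of the 2199 to 2364 CPM of that list in the blastocyst, and the measure was not repeated without it. With all counts, the genes most like Fgfr2 were Gata3, a trophectoderm transcription factor, at a mean rho of 0.32 over 4 groups, and Krt18, a keratin of that layer, at 0.31. In thinned wells Fgfr2 was too sparse for that measure. Dusp6 in the morula was most like Spic at 0.35, with all counts. These genes came out on top among 6187 candidates in the blastocyst and 8376 in the morula. Other members had top genes of like strength with all counts. In the morula Grb2 was most like Pemt at 0.36 and Sos1 most like Cdc23 at 0.34. In the blastocyst Sos1 was most like Ppic at 0.32. These values are over 177 blastocyst or 191 morula wells and share depth within a well.

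Blastocyst wells were also clustered on other genes, with all 10 members left out, and gave 7 clusters. One of 29 wells had 5 trophectoderm markers among its top 10 genes (Tfap2a, Ptges, Krt18, Fabp3 and Id2) and was called trophectoderm-like. Another, of 27 wells, was led by Glrx and had only Spp1 among the listed markers, so it stayed unnamed. Sox2, a gene of the inner cell mass, had 0 counts in the trophectoderm-like wells and 23 in the Glrx-led wells, and Cdx2 of the trophectoderm had 26 and 1. Only these markers of those counted per cluster are given, and they do not name the Glrx-led one. Fgf4 was at 1.16 CPM in the trophectoderm-like cluster (1 count, exact 95% Poisson interval 0.0293 to 6.45) and at 21.3 CPM in the Glrx-led cluster (12.8 to 33.2). Etv5 was at 6.94 CPM (2.55 to 15.1) and at 35.8 CPM (24.5 to 50.6), and 18 of the 27 Glrx-led wells had a count. Fgfr2 went the other way, at 31.2 CPM (20.6 to 45.5) in the trophectoderm-like and 4.48 CPM (1.22 to 11.5) in the Glrx-led cluster. So did Dusp6, at 17.4 CPM (9.72 to 28.6) and 1.12 CPM (0.0283 to 6.24). In the remaining, unnamed clusters Fgfr2 ranged from 14.0 to 37.5 CPM, with the highest value in 11 wells led by C86187. That value rested on 15 counts, all from NKX1-2 wells, at 12.1 CPM in plate 1 and 55.5 CPM in plate 2. The trophectoderm-like cluster, at 31.04 and 31.5 CPM, was thus above the C86187-led one in plate 1 and below it in plate 2. In the remaining, unnamed clusters Fgf4 ranged from 0 to 16.3 CPM, Etv5 from 0 to 13.3 CPM and Dusp6 from 1.72 to 10.0 CPM.

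For these 4 genes the intervals of the trophectoderm-like and Glrx-led clusters did not overlap. Those of Fgfr1, Spry2, Spry4, Grb2 and Sos1 did, and Etv4 had 0 counts in both. Intervals cover counting error only, and no test was made between clusters. The order was the same in both plates for Fgfr2 (31.04 and 31.5 CPM against 2.97 and 5.39), Dusp6 (11.1 and 24.2 against 0 and 1.80) and Etv5 (6.65 and 7.26 against 29.7 and 39.5). Fgf4 had 2 of its 19 Glrx-led counts in plate 1 and 17 in plate 2, against 0 and 1 in the trophectoderm-like cluster. The Glrx-led wells were spread unevenly, with 2 control and 10 NKX1-2 wells in plate 1 and 11 and 4 in plate 2. Their median depth, 31958 counts, was near that of the trophectoderm-like wells, 28563. CPM here are on unscaled totals, and doublets were not called.

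**Figure D5:**
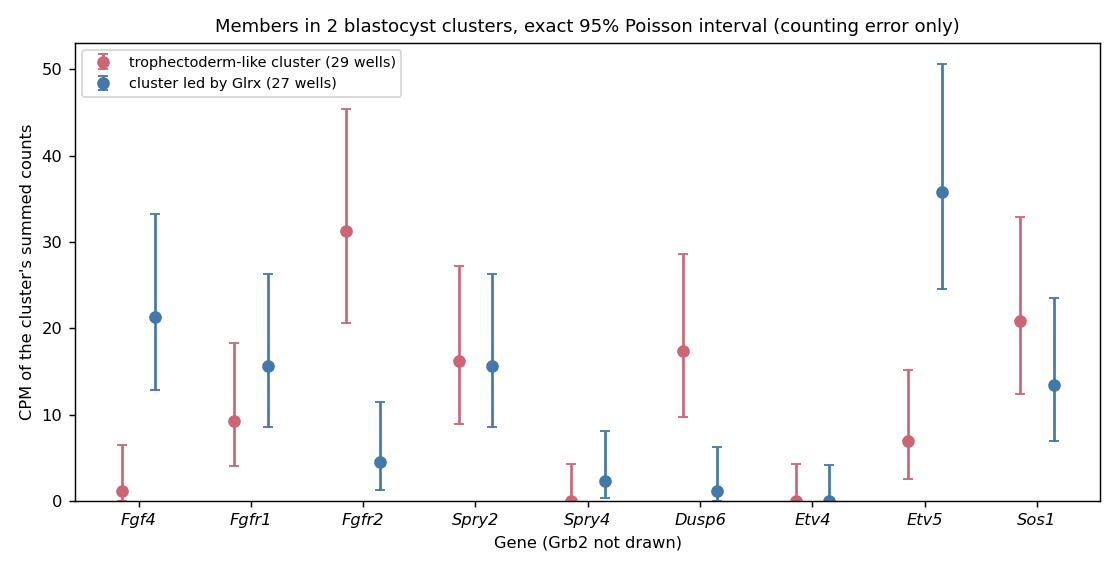
CPM of 9 genes over the summed counts of the trophectoderm-like cluster (29 wells) and the cluster led by Glrx (27 wells), with exact 95% Poisson intervals. Fgf4 and Etv5 lie higher in the Glrx-led cluster, Fgfr2 and Dusp6 in the trophectoderm-like one.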

How the data were processed

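The authors deposited whole-number counts per gene and well barcode, without normalization per the file headers. Per the submitters' processing notes, the tool TopHat2 is listed along with GRCm38 and mm10, with no role or version. How genes were counted, on which strand, and as reads or as molecules is not given in the sources used here. The labels' protocols describe a TruSeq library, while their descriptions name 10x Genomics. A deposited table maps the 96 barcodes, shared by all plates, to morpholinos. In both morula plates 344 neighbouring genes had no count and were left out; none is a member, and Ugdh, Utf1 and Upp1 of the lists are.

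The 16 wells with under 2000 genes were dropped. Sums over the wells of each plate and morpholino were filtered with filterByExpr, scaled by TMM and fitted with edgeR 4.0.16 (robust quasi-likelihood, R 4.3.3), Benjamini-Hochberg over all genes, adjusted p under 0.05. The morpholino was fitted in all 8 sums with the plate as block, since both sums of a plate share it. Same-plate deviations correlated at 0.257 in the morula and -0.000704 in the blastocyst. The stages were fitted in the 4 control and 4 NKX1-2 sums. Alternatives were RLE, DESeq2 1.42.0, no filter, every well, deep wells thinned, the highest well left out, the block, each plate left out and, added after seeing the data, no scaling factors. The models were tested on simulated data. Clusters came from scanpy 1.11.5 and leidenalg 0.10.2 (2000 variable genes, 15 components, 15 neighbours, resolution 1). Positions and lengths are those of GENCODE on GRCm38. The spread index is the sum over wells of squared deviations from the depth-scaled mean divided by that mean, per degree of freedom.

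All 10 members are named, with a fold change where they passed and otherwise a range. Of the pathway list, the genes that passed are named, at most 6 per comparison in order of p; some of these are not reported here. Genes like a member needed a mean rho of 0.3 over 4 groups. The members and lists were chosen with earlier results of these data known.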

Additional observations from a re-analysis of the deposited data

How the results depend on the processing

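Of 25 fitted values examined, 17 kept their call in every alternative that gave one and 8 lost it in at least 1, and 0 changed sign. Members called for the morpholino stayed at 0 in all 4 comparisons under every alternative. For the stages in control wells, 2 to 4 members were called. In NKX1-2 wells DESeq2 called 2 members against 4, and leaving out 1 plate gave 2 to 3. With the replicate block, which pairs plates of equal number across stages, 2 members were called in control wells and 4 in NKX1-2 wells, and 17 and 28 pathway genes against 22 and 26; numbers share nothing stated (correlations of 0.0251 and -0.00201). Without the plate, as the fit with no replicate block, 0 members were called for the morpholino, and 0 pathway genes on average against 1. Pathway genes called on average were also 0 in DESeq2, with every well and with no scaling factors, and 0 to 9 with 1 plate left out: 9 without blastocyst replicate 1. Without a filter 2 were called in the morula. With 1 plate left out, 0 to 3 were called in the morula, 0 to 2 in the blastocyst and 0 to 1 for the difference. For the stages DESeq2 called 13 pathway genes in control and 17 in NKX1-2 wells, and leaving out 1 plate gave 14 to 20 and 13 to 22.

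The split of stage calls moved with scaling: TMM gave 51.9% lower in control and 52.2% in NKX1-2 wells, and no scaling factors, added after seeing the data, 69.6% and 68.1%, with all genes shifted by -0.28 and -0.26. With 2 plates per stage and sparse counts, simulated 2-fold changes between morpholinos were recovered for 73% of changed genes in the morula. The share was 55% in the blastocyst (10345 and 10346 genes tested), and both may be too high for members with few counts. At resolution 0.5 the trophectoderm-like and Glrx-led clusters again held 29 and 27 wells with the same values, so that setting adds no check. At resolution 1.5 they held 17 wells each, and the order of Fgf4, Etv5, Fgfr2 and Dusp6 was kept over both plates together. The Glrx-led cluster then had only 2 wells of plate 1. In that plate its Etv5 was at 0 CPM against 9.17 in the trophectoderm-like cluster, and Fgf4 was at 0 in both. A separate cluster led by Rhox5 then held 10 NKX1-2 wells of plate 1, with Etv5 at 34.0 CPM and Fgf4 at 6.81 CPM. The Glrx-led cluster at resolution 1 also held 10 such wells, and Rnf130 and Ezr were among the top 10 genes of both.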

Other observations

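Heparan sulfate, the sugar chain that FGF ligands need to bind their receptors, is made by enzymes read here from a list of 13 genes. In control wells 7 were tested for the stages, and 3 were lower in the blastocyst and 0 higher (edgeR), where 41.7% of all genes were called and 21.6% were called lower, with a median log2 fold change of -0.54. In NKX1-2 wells 8 were tested, with 2 lower and 0 higher, against 45.9% of all genes called and 24.0% called lower. Ndst1, which removes acetyl groups from the chain and adds sulfate, fell by 1.40 (SE 0.38) in control wells, from 37.1 ± 4.07 to 14.7 ± 9.02 CPM (SD, n = 2 plates), and fell by 1.32 (SE 0.30) in NKX1-2 wells. Xylt2, which starts the chain, fell by 2.32 (SE 0.73) and by 1.36 (SE 0.54), from 32 counts to 3 in control wells, a CPM ratio of 0.191 (exact 95% interval for counting error 0.0374 to 0.611). Hs6st1, a sulfotransferase, fell by 0.97 (SE 0.30) in control wells. These names were chosen after their values were seen. In control wells all 3 calls were lost without blastocyst plate 2 (log2 fold changes of -0.79, -0.88 and -1.66 for Ndst1, Hs6st1 and Xylt2), those of Hs6st1 and Xylt2 also in DESeq2, that of Hs6st1 without morula plate 2 and that of Xylt2 without morula plate 1. In NKX1-2 wells the Xylt2 call was lost under 9 of 12 alternatives, DESeq2 and each plate left out among them. For the morpholino, 0 of 8 were called by edgeR in each of the 4 comparisons (1, 0, 0 and 1 at an unadjusted p under 0.05) and 0 by DESeq2.

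Grb2, the one member found in most blastocyst wells, was most like Gm5612, at a mean rho of 0.31 over 4 groups of thinned wells, and Pbk, a mitotic kinase, at 0.30. With all counts the value for Gm5612 was 0.46.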
